A study of Mus musculus with 2 samples.

Results

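The lysosome genes described here were the rows of the deposited gene table whose names start with *Atp6v* or *Atp6ap*, the cathepsin genes named *Cts* with a single further letter, and *Lamp1*, *Lamp2*, *Scarb2*, *Mcoln1* and *Tfeb*. They numbered 43 of the 18467 genes in the table: 26 *Atp6* rows, 12 cathepsins and 5 others, on 18 chromosomes. The data were 1 library of Kat8 Gdf9 cKO oocytes (*Gdf9*-Cre with *Kat8* fl/fl, called cKO here) and 1 library of wild type (WT) oocytes, both from C57BL/6 mice 2 weeks old. *Gdf9*-Cre acts in the oocyte, so the other ovarian cells of these mice keep *Kat8*, which encodes the acetyltransferase of histone H4 lysine 16. The sources used here do not say how many mice were pooled. Values are FPKM, fragments scaled by transcript length and library size, so levels can be set side by side between genes.

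The vacuolar ATPase is the rotary proton pump that acidifies lysosomes, endosomes and Golgi vesicles. Its cytosolic V1 sector hydrolyses ATP and turns a shaft, and its membrane Vo sector carries protons through a ring that turns with the shaft. Cathepsins are the proteases that work in the acid lumen. LAMP1, LAMP2 and LIMP-2 (encoded by *Scarb2*) make up much of the lysosomal membrane protein, mucolipin 1 (*Mcoln1*) releases calcium from the lysosome, and the transcription factor TFEB activates many of these genes through CACGTG-containing promoter sites. In oocytes, lysosomes take up and digest material that enters by endocytosis and autophagy.

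Because TFEB acts through CACGTG-containing sites, the promoters were read first for these letters. RefSeq start windows on GRCm38.p6, from 250 bases before to 50 bases after the start, were matched for 33 of the 43 genes. No window was matched for *Atp6v1b2*, *Atp6v1c1*, *Atp6v1g1*, *Atp6v1h*, *Atp6v0a2*, *Atp6v0d2*, *Atp6v0c-ps2*, *Atp6ap1l*, *Ctsb* and *Ctsh*. Whether these genes have the sites is thus not known here. The letters CACGTG, which read the same on both strands, occurred in a window of 10 of these 33 genes (30.3%), in 8.09% of all 27025 genes with a window, and in 10.3% of those in the deposited table. The longer form with T before and A after, which contains the shorter one, occurred in 6 of the 33 (18.2%), in 1.12% of all genes and in 1.72% of those in the table. The sites of the 6 genes with the longer form are shown in windows of 30 bases, the coding strand 5′ to 3′, with the longer form in capitals (the first of 2 such sites in *Ctsa*), followed by the place of each window on GRCm38.
Atp6v0d1: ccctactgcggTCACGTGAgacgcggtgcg (chr8:105566050-105566079, minus strand)
Atp6v0e: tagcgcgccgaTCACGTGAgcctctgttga (chr17:26676387-26676416, plus strand)
Atp6v1a: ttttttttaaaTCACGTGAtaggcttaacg (chr16:44139373-44139402, minus strand)
Ctsa: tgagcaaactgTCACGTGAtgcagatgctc (chr2:164833749-164833778, plus strand)
Ctsd: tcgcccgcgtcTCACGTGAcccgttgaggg (chr7:142387908-142387937, minus strand)
Mcoln1: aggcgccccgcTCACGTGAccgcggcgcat (chr8:3500462-3500491, plus strand)

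*Lamp1* held 4 copies of CACGTG, more than any other member with a window, and *Atp6v1f*, the member with the lowest log2 ratio, held 0. Their upstream sequences are shown with CACGTG in capitals, up to the first annotated start.
Lamp1: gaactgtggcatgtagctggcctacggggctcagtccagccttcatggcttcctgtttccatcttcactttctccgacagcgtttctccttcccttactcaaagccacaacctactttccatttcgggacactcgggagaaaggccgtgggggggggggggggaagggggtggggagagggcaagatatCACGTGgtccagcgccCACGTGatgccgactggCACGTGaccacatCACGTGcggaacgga (chr8:13158911-13159160, plus strand)
Atp6v1f: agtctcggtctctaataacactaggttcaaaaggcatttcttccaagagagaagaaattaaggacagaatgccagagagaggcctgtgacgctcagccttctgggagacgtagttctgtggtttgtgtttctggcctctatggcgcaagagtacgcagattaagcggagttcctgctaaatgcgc (chr6:29467533-29467717, plus strand)

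The rule of calling, named the 2-fold rule here, asked for 1 FPKM in either library (the floor) and a log2 ratio of cKO over WT, on the log2(FPKM + 0.1) scale, of at least 1 (higher) or at most -1 (lower). With 1 library per genotype there is no replicate check and no test, and the genotype cannot be told apart from the library. Of 11816 genes past the floor, 18.2% were called higher and 12.2% lower, and the median log2 ratio was 0.06. *Kat8* stood at 0.985 FPKM in the cKO and 166 FPKM in the WT library. Among very low values, 1 fragment in the cKO library corresponded to 1.24 times the FPKM of 1 fragment in the WT library, so low cKO values are the less precise ones. Oocyte markers were high in both libraries (10 genes, summed 18869 FPKM in the cKO and 23721 FPKM in the WT). Granulosa cell markers summed to 156 FPKM in the cKO and 143 FPKM in the WT (12 genes), theca and stroma markers to 12.1 and 2.19 FPKM (9 genes), endothelial markers to 11.1 and 12.3 FPKM (4 genes), and macrophage markers to 15.7 and 43.5 FPKM (9 of 12 genes in the table). *C1qb* made up 12.3 FPKM of the macrophage sum in the cKO and 39.5 FPKM in the WT. *Mrc1*, at 1.24 FPKM in the cKO and 2.92 FPKM in the WT, and *Fcgr3*, at 1.26 and 0.820 FPKM, also reached 1 FPKM. *C1qa* stood at 0.522 FPKM in the cKO and was listed at 0 in the WT, and *Csf1r* and *Ptprc* were under 0.1 FPKM in both.

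Of the 43 genes 32 passed the floor. Most of the pump genes had less transcript in the cKO library, the cathepsins went both ways, and *Lamp1* was level. By the 2-fold rule 3 were higher, all cathepsins, against a background of 18.2%, and 5 were lower, all pump genes, against a background of 12.2%. The median log2 ratio of the 32 was -0.27, with 22 below 0, beside 5535 below 0 among all 11816 genes past the floor. This median depended on scaling: it was 0.0025 with both libraries brought to the same FPKM total, a scaling that moved the median of all genes to 0.32. Together the 43 rows took 0.303% of all FPKM in the cKO and 0.351% in the WT library.

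**Figure D1:**
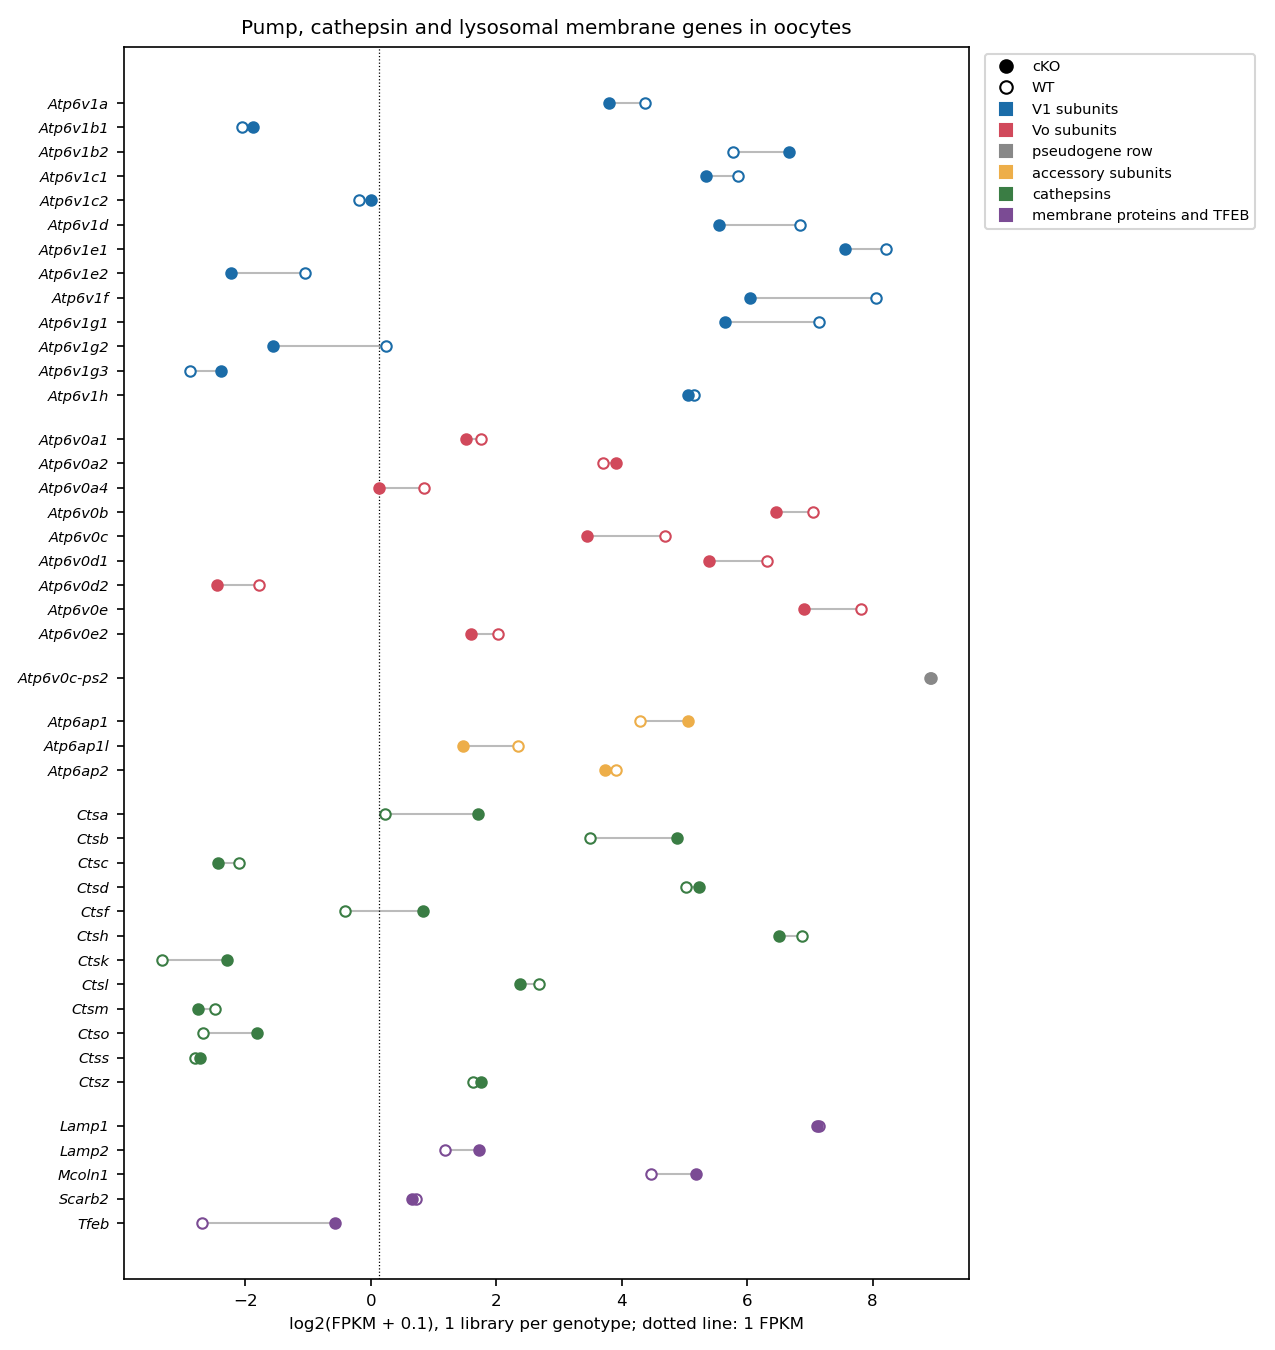
Levels of the 43 genes in the cKO library (filled) and the WT library (open), as log2(FPKM + 0.1), grouped by role; the dotted line marks 1 FPKM. Open symbols lie to the right of filled ones for most pump genes that passed the floor, for example *Atp6v1f* at 66.0 FPKM in the cKO and 265 FPKM in the WT, while *Atp6v1b2*, *Ctsb* and *Mcoln1* show the reverse.

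The V1 sector, which hydrolyses ATP, was lower in the cKO library for 8 of the 9 genes past the floor. Their median log2 ratio was -0.65, and 4 of the 9 were called lower and 0 higher, against backgrounds of 12.2% and 18.2%. The median stayed below 0 under each scaling tried, between -0.79 and -0.37. *Atp6v1f*, a subunit of the central shaft (gene ID 66144, GRCm38 chr6:29467718-29470512), stood at 66.0 FPKM in the cKO and 265 FPKM in the WT library, 4.02-fold lower (log2 ratio -2.01). *Atp6v1d*, the other shaft subunit (chr12:78840725-78861638), stood at 46.6 FPKM in the cKO and 114 FPKM in the WT, 2.45-fold lower. *Atp6v1g1*, a subunit of the peripheral stalks that hold the sectors together (chr4:63544772-63550750), stood at 49.8 FPKM in the cKO and 141 FPKM in the WT, 2.83-fold lower. Both shaft subunits and the main G subunit were thus past the 2-fold rule. The authors' deposited table gives these 3 genes FDR values of 1.37e-20, 0.000446 and 1.5e-06 and places them in its list of lower genes, which holds 1.94% of all genes; that test compares these libraries, not genotypes. *Atp6v1g1* has processed copies with near-identical sequence (*Gm13453*, 99.4% over 357 bases), and *Atp6v1f* has a partial copy (*AC169506.3*, 98.5% over 202 bases, of a transcript of 703 bases), so the assignment of reads is uncertain for both. The fourth called gene, *Atp6v1g2*, the G subunit known from neurons, was barely past the floor, at 0.241 FPKM in the cKO and 1.09 FPKM in the WT.

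The other V1 subunits lay inside the 2-fold rule. *Atp6v1e1*, the E subunit of the stalks, was, the pseudogene row described below aside, the most abundant pump gene in both libraries, at 189 FPKM in the cKO and 295 FPKM in the WT, a log2 ratio of -0.65. *Atp6v1a*, the catalytic subunit, stood at 13.8 FPKM in the cKO and 20.6 FPKM in the WT, a log2 ratio of -0.58. *Atp6v1c1*, which joins the stalks to the Vo sector, stood at 40.7 FPKM in the cKO and 57.5 FPKM in the WT. These 3 genes had log2 ratios between -0.65 and -0.50. *Atp6v1h*, the regulatory H subunit, was near level, at 33.2 FPKM in the cKO and 35.5 FPKM in the WT. *Atp6v1b2* was the exception: this partner of the A subunit in the catalytic ring (chr8:69088646-69113711) stood at 101.5 FPKM in the cKO and 54.8 FPKM in the WT, a log2 ratio of 0.89. It passed the 2-fold rule with libraries brought to the same total (1.13) or sized without the 50 most abundant genes (1.096). A and B subunits occur in equal number in the assembled pump; the transcript of *Atp6v1b2* was 7.37 times as abundant as that of *Atp6v1a* in the cKO and 2.66 times in the WT library.

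The membrane sector showed the same median as V1. Of the 9 Vo genes 8 passed the floor, 7 of them with ratios below 0 and a median of -0.65, which stayed between -0.80 and -0.42 under the scalings tried. By the 2-fold rule 1 of the 8 was lower and 0 higher, against backgrounds of 12.2% and 18.2%. The lower gene was *Atp6v0c*, of the proton-carrying ring, and its call is uncertain. *Atp6v0c* stood at 10.8 FPKM in the cKO and 25.7 FPKM in the WT, a log2 ratio of -1.25, whereas the row of the pseudogene *Atp6v0c-ps2* stood at 482 FPKM in the cKO and 488 FPKM in the WT. The deposited table gives both rows one locus, chr17:24163864-24169429, which is the place of *Atp6v0c*; RefSeq places the pseudogene at chr6:37805975-37807107. The copies are 99.7% identical over 387 aligned bases. The pseudogene row took 97.8% of the summed level in the cKO and 94.99% in the WT, and the sum was 493 FPKM in the cKO and 514 FPKM in the WT, a log2 ratio of -0.06. With the rows summed, the call of *Atp6v0c* was lost and the Vo median was -0.51.

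The other Vo genes that reached 5 FPKM were close to the 2-fold line or well inside it. *Atp6v0e*, a small subunit of the membrane sector, stood at 119.5 FPKM in the cKO and 226 FPKM in the WT, a log2 ratio of -0.92. *Atp6v0d1*, which couples the ring to the shaft, stood at 41.9 FPKM in the cKO and 79.9 FPKM in the WT, a log2 ratio of -0.93. Median-of-ratios scaling put both past the rule, at -1.07 and -1.08. *Atp6v0b*, a further ring subunit, stood at 87.7 FPKM in the cKO and 133 FPKM in the WT. *Atp6v0a2*, the a subunit that guides protons to the ring, was the only Vo gene past the floor with a ratio above 0, at 14.9 FPKM in the cKO and 12.9 FPKM in the WT. *Atp6v0a1* (2.78 FPKM in the cKO, 3.28 FPKM in the WT), *Atp6v0a4* (1.00 and 1.69 FPKM) and *Atp6v0e2* (2.93 and 3.97 FPKM) had log2 ratios between -0.70 and -0.23.

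Several pump subunits are encoded by paralogues, and the same copy prevailed in both libraries for each of the 7 subunits examined. *Atp6v1b2* made up 99.8% of the B subunit transcript in the cKO and 99.7% in the WT, *Atp6v1e1* 99.9% in both, *Atp6v1g1* 99.3% in the cKO and 99.2% in the WT, and *Atp6v0d1* 99.8% in both. The renal and osteoclast copies *Atp6v1b1*, *Atp6v1g3* and *Atp6v0d2* were under 0.2 FPKM in both libraries. The renal *Atp6v0a4* stood above these, at 1.00 FPKM in the cKO and 1.69 FPKM in the WT, as did the osteoclast *Tcirg1*, at 0.553 and 0.490 FPKM. *Atp6v1e2*, the E subunit of sperm, was at 0.115 FPKM in the cKO and 0.382 FPKM in the WT. *Atp6v1c2* stood at 0.905 FPKM in the cKO and 0.781 FPKM in the WT, just under the floor. The a subunit was the most mixed. *Atp6v0a2* gave 77.5% of its transcript in the cKO and 70.2% in the WT, *Atp6v0a1* 14.4% and 17.9%, *Atp6v0a4* 5.20% and 9.22%, and *Tcirg1*, the osteoclast a subunit, 2.87% and 2.67%.

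**Figure D2:**
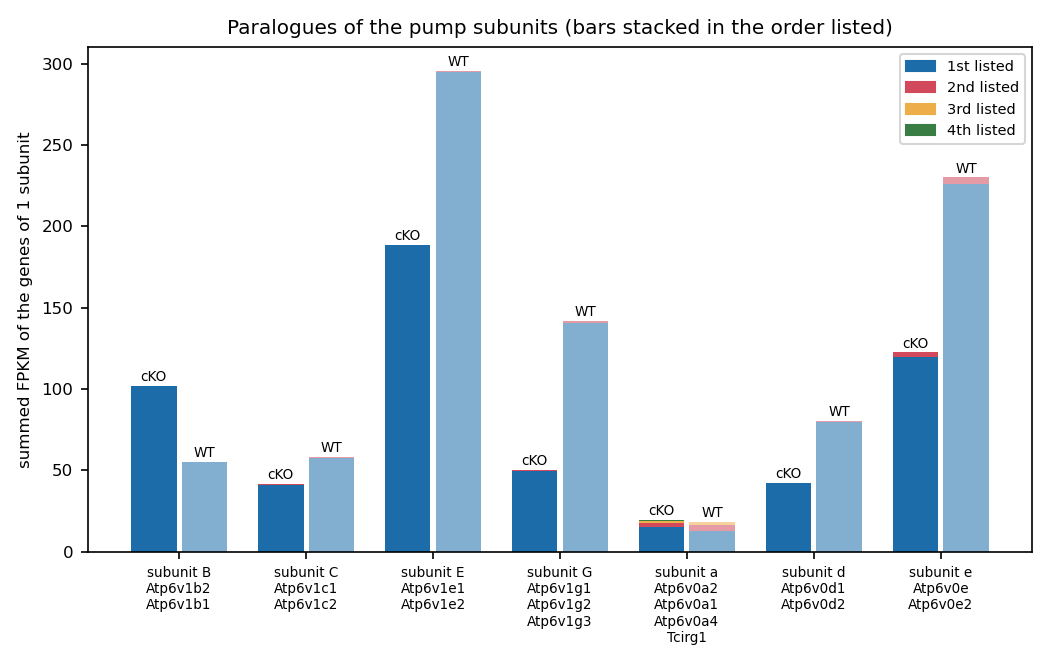
Summed FPKM of the genes that encode each pump subunit with several copies, stacked by gene, in the cKO library (left, solid) and the WT library (right, pale). A single gene fills nearly the whole bar for 6 subunits, and the B subunit is the one whose bar is clearly taller in the cKO, at 102 FPKM, against 54.9 FPKM in the WT.

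The accessory subunits, which assist assembly of the pump and its sorting, did not follow a shared direction. *Atp6ap1*, on the X chromosome, stood at 33.1 FPKM in the cKO and 19.6 FPKM in the WT, a log2 ratio of 0.76. *Atp6ap2*, the prorenin receptor, also X-linked, stood at 13.2 FPKM in the cKO and 14.99 FPKM in the WT. *Atp6ap1l* stood at 2.67 FPKM in the cKO and 4.999 FPKM in the WT. Among 12 further genes of pump assembly and regulation, from a list that also holds *Tcirg1*, 11 passed the floor, with a median log2 ratio of 0.33. Of these, 1 was higher and 0 lower, against backgrounds of 18.2% and 12.2%. The higher gene was *Ncoa7*, at 3.50 FPKM in the cKO and 1.48 FPKM in the WT. *Ccdc115* and *Rnasek*, both assembly or associated proteins of the pump, were abundant, at 237 and 186 FPKM in the cKO and 189 and 236 FPKM in the WT. The difference between this list and the core subunits was not tested.

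Log2 ratios ran with transcript length in these libraries, and several pump transcripts are short. Across the 20 pump genes past the floor, the pseudogene row aside, Pearson's r of log2 ratio and log2 length was 0.53, and across the 11397 genes past the floor with a length it was 0.19; genes of one pair of libraries share depth and fragment size, so these are descriptions. Of all genes past the floor and under 1500 bases, 25.1% were called lower, and the median log2 ratio was -0.34; among those of 20 FPKM or more it was -0.50. The 7 pump genes past the floor and under 1500 bases had a median of -0.92, and the 13 longer ones a median of -0.42. Less the trend of the log2 ratio on length and GC content, the medians were -0.67 for V1 and -0.59 for Vo, and *Atp6v1f* (-1.78), *Atp6v1d* (-1.30) and *Atp6v1g1* (-1.16) kept their calls. *Atp6v1d* has a transcript of 3667 bases, in a length range where most genes had ratios above 0.

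**Figure D3:**
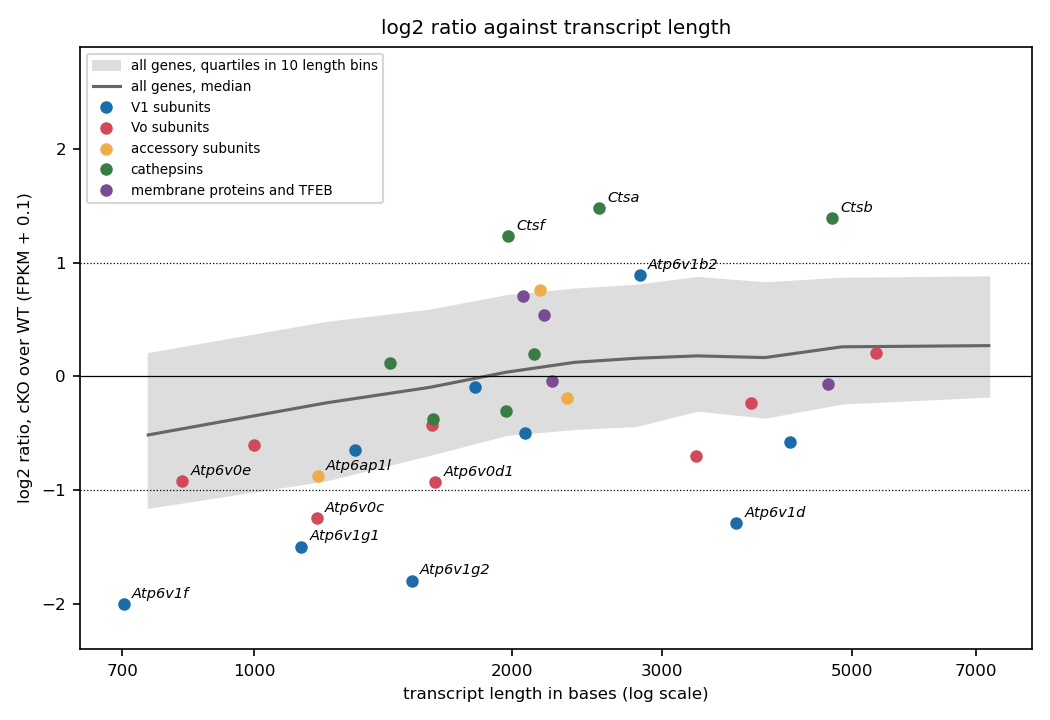
Log2 ratio of cKO over WT against transcript length (log axis) for the genes past the floor, coloured by role, over the median and quartiles of all genes in 10 length bins. The shortest bin has a median of -0.51 and the longest 0.27, and *Atp6v1f*, *Atp6v1g1*, *Atp6v1g2* and *Atp6v1d* lie below the lower quartile of genes of their length.

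The cathepsins held all 3 genes called higher, and 7 of 12 passed the floor. Of these 7, 3 were higher and 0 lower, against backgrounds of 18.2% and 12.2%. Their median log2 ratio was 0.20. It was -0.11 with the length and GC trend removed and -0.050 with a floor of 5 FPKM, so the group has no stable direction. *Ctsb*, a cysteine protease (gene ID 13030, chr14:63122462-63145923), stood at 29.5 FPKM in the cKO and 11.2 FPKM in the WT, 2.64-fold higher. The authors' deposited table gives it an FDR of 0.0153 and places it in its list of higher genes, which holds 2.71% of all genes. *Ctsb* shares 774 exonic bases, 12.8% of its own, with *Fdft1* on the other strand, which stood at 193 FPKM in the cKO and 263 FPKM in the WT. Strand-specific counting is not stated, so reads from those bases could come from either gene.

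*Ctsa*, the carboxypeptidase also called protective protein, which stabilises lysosomal sialidase and beta-galactosidase, stood at 3.18 FPKM in the cKO and 1.07 FPKM in the WT, 2.96-fold higher. It shares 10.5% of its exonic bases with *Pltp* and 6.9% with *Neurl2*, both on the other strand. *Pltp* stood at 0.595 FPKM in the cKO and 0.0594 FPKM in the WT, and *Neurl2* at 0.425 and 0.114 FPKM. Reads from the shared bases are thus uncertain for *Ctsa* as for *Ctsb*. *Ctsf*, a cysteine protease, stood at 1.68 FPKM in the cKO and 0.653 FPKM in the WT, so it reached the floor only in the cKO library. Its call was lost with a pseudocount of 1 (log2 ratio 0.69) and with the length and GC trend removed (0.91). *Ctsa* and *Ctsf* were both at low level, and the deposited table gives each an FDR of 1. The abundant cathepsins differed less. *Ctsh*, an aminopeptidase, led the family at 90.5 FPKM in the cKO and 117 FPKM in the WT. *Ctsd*, the main aspartic protease of lysosomes, stood at 37.3 FPKM in the cKO and 32.4 FPKM in the WT, *Ctsl* at 5.12 and 6.34 FPKM, and *Ctsz* at 3.27 and 3.003 FPKM. *Ctsd* shares 34.4% of its exonic bases with *Gm49369* on the same strand. *Ctsl* shares 26.8% with *Gm47123* on the other strand, so the assignment of reads is uncertain for both.

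The 5 cathepsins under the floor were those known from immune cells, bone or placenta, and *Ctso*. *Ctss*, characteristic of antigen-presenting cells, stood at 0.0519 FPKM in the cKO and 0.0442 FPKM in the WT. *Ctsc*, which activates granule proteases, stood at 0.0859 FPKM in the cKO and 0.134 FPKM in the WT. *Ctsk*, the osteoclast collagenase, stood at 0.104 FPKM in the cKO and was listed at 0 in the WT. *Ctsm*, a placental cathepsin with close relatives, stood at 0.0481 FPKM in the cKO and 0.0796 FPKM in the WT, and *Ctso* at 0.185 and 0.0572 FPKM. All 9 theca and stroma markers had ratios above 0, as *Ctsb* did, but 5 of the 9 were under the floor. The 4 past the floor were all called higher, against a background of 18.2%. They reached the floor only in the cKO library, since the highest of the 9 stood at 0.689 FPKM in the WT. Of the 11 granulosa markers past the floor 6 had ratios above 0, 4 of them called higher, and 5 had ratios below 0, among them the most abundant, *Inha* (62.7 FPKM in the cKO and 67.3 FPKM in the WT). The part of theca, stroma and granulosa cells in the cathepsin values was not tested. More or fewer cells of a type cannot be told apart from more or less RNA per cell.

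The lysosomal membrane proteins were within the 2-fold rule. *Lamp1*, with 4 CACGTG copies in its promoter, stood at 138 FPKM in the cKO and 142 FPKM in the WT, a log2 ratio of -0.04. Its relative *Lamp2*, needed for autophagosome fusion, was far less abundant, at 3.19 FPKM in the cKO and 2.17 FPKM in the WT. *Scarb2*, which carries glucocerebrosidase to the lysosome, was level at 1.47 FPKM in the cKO and 1.54 FPKM in the WT. *Mcoln1* stood at 36.2 FPKM in the cKO and 22.1 FPKM in the WT, a log2 ratio of 0.71, or 0.39 with the length and GC trend removed. *Tfeb* itself stood at 0.573 FPKM in the cKO and 0.0558 FPKM in the WT, a quotient of 10.3 between values under the floor, and the deposited table gives it an FDR of 1. Its relative *Tfe3* was the abundant factor of this family, at 79.1 FPKM in the cKO and 62.9 FPKM in the WT.

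The 10 members with CACGTG in a promoter window went both ways. Those with the longer site were *Atp6v0d1*, *Atp6v0e* and *Atp6v1a*, with log2 ratios of -0.93, -0.92 and -0.58, and *Ctsd*, *Mcoln1* and *Ctsa*, with 0.20, 0.71 and 1.48. Those with the shorter form alone were *Atp6v0b* (-0.60), *Ctsl* (-0.30), *Lamp1* (-0.04) and *Ctsf* (1.24). In all 6 of the 10 ratios were below 0 and 4 above it.

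Genes of the wider lysosomal pathway, taken from lists outside the members, had list medians between 0.01 and 0.30 apart from the pump assembly genes above and the cystatins. With the length and GC trend removed these medians were -0.09 for hydrolases, 0.07 for activators, -0.15 for membrane proteins, -0.25 for sorting genes and -0.18 for TFEB regulators, so 4 of the 5 changed sign; the median of all genes was then -0.073. The calls of *Naglu* (0.31), *Psap* (0.91), *Abcb9* (0.42) and *Gga1* (0.80), described below, were lost in the same way. Other genes of the lists crossed the lower line: *Arsb* (-1.20), *Slc38a9* (-1.19), *Glb1* (-1.18), *Ap1m1* (-1.14), *Wdr7* (-1.12) and *Npc2* (-1.04). The cystatin gene *Stfa1* (1.62) crossed the higher line. The 28 other hydrolases past the floor, of 40, had a median log2 ratio of 0.16 with 3 higher and 1 lower. The background for this and each later list was 18.2% higher and 12.2% lower. *Hyal2*, a hyaluronidase, was lower, at 13.7 FPKM in the cKO and 35.97 FPKM in the WT, and *Naglu*, which degrades heparan sulfate, was just past the rule (log2 ratio 1.00), at 5.28 FPKM in the cKO and 2.59 FPKM in the WT. *Neu1*, the sialidase that CTSA stabilises, stood at 4.33 FPKM in the cKO and 1.23 FPKM in the WT. *Glb1*, the beta-galactosidase that CTSA also stabilises, went the other way, at 1.18 FPKM in the cKO and 2.39 FPKM in the WT. Its log2 ratio of -0.96 was just inside the rule. The third higher gene was *Gusb*, a glucuronidase, at 1.34 FPKM in the cKO and 0.386 FPKM in the WT. Of the 6 activators and lipid transfer genes past the floor 2 were higher: *Npc1*, the cholesterol exporter, stood at 18.8 FPKM in the cKO and 5.06 FPKM in the WT, and *Psap*, the precursor of the saposins, at 26.5 FPKM in the cKO and 11.1 FPKM in the WT.

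Among 18 other membrane proteins and channels past the floor, 4 were higher and 1 lower, with a median of 0.22. *Ostm1* and *Clcn7*, which together form the lysosomal chloride-proton exchanger, were both higher. *Ostm1* stood at 9.59 FPKM in the cKO and 2.41 FPKM in the WT, and *Clcn7* at 8.46 FPKM in the cKO and 2.66 FPKM in the WT. *Laptm5*, known from blood cells, stood at 9.47 FPKM in the cKO and 3.14 FPKM in the WT. The other called genes were the peptide transporter gene *Abcb9*, higher at 13.6 FPKM in the cKO and 5.84 FPKM in the WT, and the phosphatase gene *Tmem55a*, lower at 5.35 FPKM in the cKO and 15.4 FPKM in the WT. Of 16 sorting genes 1 was higher and 2 lower (median 0.14). *Gga1*, a Golgi adaptor for mannose 6-phosphate receptors, stood at 21.9 FPKM in the cKO and 6.40 FPKM in the WT, and *Vps29*, of the retromer, at 25.5 FPKM in the cKO and 66.7 FPKM in the WT. *Nagpa*, which uncovers the mannose 6-phosphate signal, was the other lower gene, at 0.965 FPKM in the cKO and 2.25 FPKM in the WT.

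The regulators of TFEB held the largest ratios of these lists. Of 20 past the floor 3 were higher and 4 lower, with a median of 0.01. *Rptor*, the scaffold of mTORC1, which holds TFEB in the cytoplasm, stood at 15.8 FPKM in the cKO and 2.01 FPKM in the WT, 7.83-fold higher. *Mlst8*, another mTORC1 subunit, stood at 6.17 FPKM in the cKO and 1.95 FPKM in the WT, while *Mtor* itself was level at 5.65 FPKM in the cKO and 5.71 FPKM in the WT. Of the 5 genes of the Ragulator complex, which binds the pump and anchors mTORC1 at the lysosome, 3 were called lower. All 5 have transcripts under 1500 bases, and 25.1% of all genes past the floor and under that length were called lower. *Lamtor4* stood at 90.4 FPKM in the cKO and 276 FPKM in the WT, *Lamtor2* at 89.8 and 235 FPKM, and *Lamtor5* at 77.9 and 204 FPKM, all over 2.6-fold lower, with transcripts of 668 to 881 bases. With the length and GC trend removed their log2 ratios were -1.56, -1.25 and -0.99, so the call of *Lamtor5* was lost. *Lamtor1*, at 115 FPKM in the cKO and 122 FPKM in the WT, and *Lamtor3*, at 77.7 FPKM in the cKO and 128 FPKM in the WT, were inside the rule. The other called genes were *Zkscan3*, a repressor of lysosomal genes, higher at 1.65 FPKM in the cKO and 0.661 FPKM in the WT, and *Fnip1*, a partner of folliculin, lower at 3.62 FPKM in the cKO and 7.77 FPKM in the WT. *Mtor*, *Lamtor1*, *Lamtor2*, *Lamtor3*, *Lamtor5*, *Zkscan3*, *Fnip1*, *Tfe3*, *Neu1*, *Gusb*, *Abcb9*, *Tmem55a*, *Nagpa*, *Ncoa7*, *Ccdc115* and *Rnasek* were chosen after their values were seen. The same holds for *Glb1*, *Arsb*, *Npc2*, *Slc38a9*, *Ap1m1*, *Wdr7* and *Stfa1*.

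Cystatins, a family that includes inhibitors of cysteine cathepsins, were led by *Cst3*, at 180.0 FPKM in the cKO and 206 FPKM in the WT. Whether each listed gene inhibits cathepsins was not examined. Of 5 cystatin genes past the floor 2 were higher and 0 lower (median 0.84). Ratios were above 0 for 3 of the 5 and below 0 for 2, *Cst3* (-0.19) and *Cstb* (-0.76). *Cst12* stood at 6.78 FPKM in the cKO and 2.80 FPKM in the WT, and *Cst8* at 1.02 FPKM in the cKO and 0.252 FPKM in the WT. *Cst3*, *Cstb* and *Cst8* were chosen after their values were seen.

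**Figure D4:**
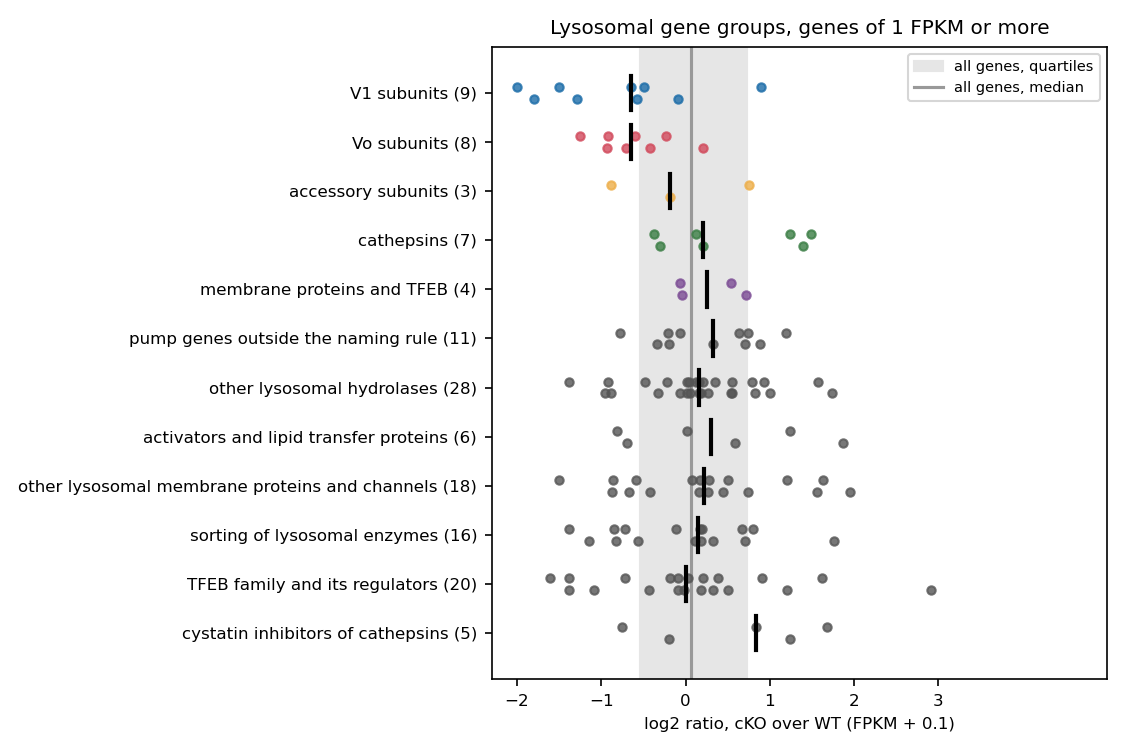
Log2 ratio of cKO over WT for each gene past 1 FPKM, by group, with the number of genes in brackets; the black bar is the median of the group, and the grey band and line give the quartiles and median of all genes. The V1 and Vo medians are both -0.65, and the Vo median is -0.51 with *Atp6v0c* and its pseudogene row summed; the median of all genes is 0.06. The band describes single genes, not medians of groups.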

How the data were processed

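Total RNA of oocytes was extracted with Trizol and made into TruSeq libraries, per the labels' protocols; the submitters' processing notes name Bowtie 0.12.2 and mm10. Gene assignment, its annotation and the test behind the p-values are not given in the sources used here. Per the file headers, the authors deposited 1 FPKM value per gene and library, the fold (a linear ratio of the KO over the NC column), a p-value and an FDR. Zeros were deposited as 1e-05 and read here as 0. The KO column was taken as cKO; the NC column was by elimination taken as WT. The authors' lists of higher (500) and lower (358) genes were checked to be the genes with an FDR of at most 0.05 and a 2-fold ratio. Among the 24 genes of 100 FPKM or more with a deposited p-value of at least 0.9, the median deposited fold was 0.847, so those p-values do not centre on a ratio of 1.

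The log2 ratio was computed here as log2(FPKM + 0.1) of cKO less WT (Python 3.11.15, pandas 2.3.3, numpy 2.4.6). The code of the rule was checked on WT values multiplied by known factors without added noise. That check cannot show how often the rule calls genes wrongly between unreplicated libraries. Counts and depth are unknown, so no interval is given. Positions, lengths and GC content came from GENCODE M21 (GRCm38), with the median length of transcripts matched to RefSeq, for 42 members; the trend was quadratic in log2 length and in GC content. Copies were sought with BLAST 2.17.0 (95% identity over 200 bases). Every member is named or counted. Of each other list, up to 3 genes with the largest absolute log2 ratio that passed the rule at 5 FPKM or more are named, and *Tcirg1* and *Kat8*. The members and lists were chosen with earlier results of these data known. A single line of the table without values was not used.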

Additional observations from a re-analysis of the deposited data

How the results depend on the processing

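No paired analysis was possible because each genotype has 1 library. Members called higher numbered 3, against 5 with libraries brought to the same total (TPM), 5 with no floor and 1 with a floor of 5 FPKM. The 5 called lower became 8 with median-of-ratios scaling. Of all genes, 18.2% were called higher and 12.2% lower by the main rule. With TPM these shares were 24.3% and 7.9%, and with median-of-ratios scaling 15.1% and 15.7%. The shares with no floor or a floor of 5 FPKM are not given here. The medians below follow the order median-of-ratios, TPM, and library sizes without the 50 most abundant genes, scalings that put the median of all genes at -0.09, 0.32 and 0.28. The median of the members was -0.41, 0.0025 and -0.066, that of V1 -0.79, -0.37 and -0.44, that of Vo -0.80, -0.42 and -0.45, and that of the cathepsins 0.053, 0.44 and 0.41. For Vo it was -0.51 with a pseudocount of 1, -0.92 with a floor of 5 FPKM, and -0.51 with *Atp6v0c* and its pseudogene row summed, an alternative chosen after seeing the data. For the cathepsins it was -0.11 with the length and GC trend removed and -0.050 with a floor of 5 FPKM. With a floor of 5 FPKM *Ctsa*, *Ctsf* and *Atp6v1g2* lost their calls (4 lower), and with no floor *Tfeb* (2.11) and *Ctsk* (1.03) were called higher and *Atp6v1e2* (-1.17) lower (6 lower). With the other settings, single members past the floor kept their side of the 2-fold rule except those the report names as changing, *Atp6ap1* (1.00 with TPM), *Atp6ap1l* (-1.02 with median-of-ratios) and *Atp6v1g2*, whose call was lost with a pseudocount of 1 (-0.75) and with TPM, where it was under the floor. None of the called members changed sign under the alternatives run. Values under 1 FPKM rest on few fragments, and the number is unknown.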

Other observations

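The deposited p-values and the deposited ratios did not share a centre for these genes. In the authors' deposited table *Atp6v0c-ps2*, at a fold of 0.989, has a p-value of 0.0143, whereas *Atp6v1c1*, at a fold of 0.707, has a p-value of 0.42 and *Atp6v0a2*, at 1.16, one of 0.451. *Atp6v1b2*, at 1.85, has an FDR of 5.56e-05 but is in neither of the authors' lists, which ask for a 2-fold ratio, and the same holds for *Atp6v0e* (0.528, FDR 0.000628) and *Atp6v1e1* (0.639, FDR 0.0358).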
